A study of Homo sapiens with 12 samples.

Results

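The apolipoprotein L (APOL) genes form a family on chromosome 22, and their RNA levels are described here in A375, an established human melanoma cell line of skin origin. The members were chosen by gene symbol (APOL1, APOL2, APOL3, APOL4 and APOL6). Of these 5 symbols, 4 were among the 4918 genes measured, and APOL4 was not analysed here. RNA was sequenced from 12 samples in 4 groups of 3, after 24 h of treatment. The groups were untreated cells (Control), cells given SB-3CT, a small-molecule inhibitor of the matrix metalloproteinases MMP2 and MMP9, cells given interferon gamma (IFNγ), and cells given SB-3CT and IFNγ together. All groups were the same cell line, so the values describe a single tumor line in culture. The labels name a vehicle in the treatment protocol and give the control as untreated. They do not say whether the 3 samples of a group came from separate cultures, so the p-values measure the spread between these samples, which may be technical. In bulk RNA, fewer cells expressing a gene and less RNA per cell cannot be told apart.

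IFNγ acts through its cell-surface receptor to induce genes of cell-autonomous defense, and APOL genes are known members of that response in many human cell types. APOL1 is the secreted member, which circulates on high-density lipoprotein and lyses trypanosomes, whereas APOL2, APOL3 and APOL6 lack its signal peptide and stay inside the cell. APOL3 is known as an interferon-induced protein that permeabilizes the membranes of cytosolic bacteria, APOL6 carries a BH3-like motif and can kill cells when overexpressed, and the function of APOL2 is less well defined.

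In the GENCODE annotation of hg19, the 6 APOL genes lay within 619084 bases of chromosome 22. APOL6 (chr22:36044493-36064451, forward strand) stood at one end with 3 exons and a transcript of 10065 bases. APOL3 (chr22:36536377-36562225, reverse strand, 4 exons), APOL2 (chr22:36622255-36636000, reverse strand, 5 exons) and APOL1 (chr22:36649117-36663576, forward strand, 6 exons) lay together in a stretch of 127200 bases at the other end, with transcripts of 2041, 2429 and 2795 bases. None of the 4 measured genes overlapped another annotated gene. Because the genes are paralogs, the sequence they share was counted in windows of 50 bases. Of APOL1's windows, 0.51% occurred in another APOL gene's transcripts, against 0.21% for APOL2 and 0.452% for APOL3, and 0 of the 10016 windows of APOL6 did. Over transcripts of all other genes the shares were 5.57% for APOL1, 2.61% for APOL2, 0.452% for APOL3 and 0.529% for APOL6. The paper's paired-end reads were longer than these windows, so a shared window need not make a read ambiguous. Whether reads were assigned to another gene was not tested.

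**Figure D1:**
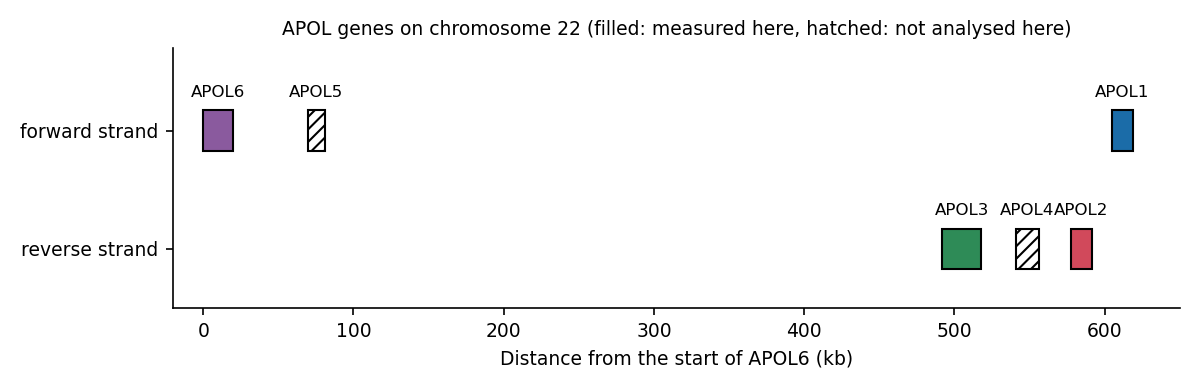
Map of the 6 annotated APOL genes on chromosome 22, drawn to scale as distance in kb from the start of APOL6, with the forward strand above and the reverse strand below. APOL3, APOL2 and APOL1 sit in 1 cluster around the unmeasured APOL4, and APOL6 lies at the far end beside the unmeasured APOL5.

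Expression was measured as FPKM (fragments scaled to transcript length and to the sample's mapped total) and deposited as log2(FPKM + 1). The read depth of a sample relative to the mean control ran from 87.0% to 150%, absolute depth is unknown, and samples of a group correlated at 0.996 to 0.998 across genes. The IFNγ label was checked on genes outside the family. CXCL10, an interferon-induced chemokine, was listed at 0 to 0.050 FPKM in the 6 samples without IFNγ and at 78.7 to 122 FPKM in the 6 samples with it, and CD274 (PD-L1) and CIITA, the activator of MHC class II genes, were likewise higher in every sample with IFNγ. Of 8 markers listed for melanoma and the melanocyte lineage, DCT, BIRC7, ABCB5 and CAPN3 were under 1 FPKM in every sample. The summed level of the list ran from 153 to 154 FPKM in Control and from 102 to 110 FPKM with both agents. Mean CSPG4 went from 48.5 FPKM in Control to 27.7 with both agents, and ERBB3 from 57.1 to 30.9. In Control, SB-3CT, IFNγ and both agents in turn, mean EDNRB was at 5.83, 4.57, 6.67 and 4.99 FPKM. AXL was at 41.2, 46.8, 56.4 and 42.4 FPKM in the same groups. The measured markers of T and B cells (4 of 8), endothelium (4 of 5), fibroblasts (2 of 3) and epithelium (1 of 4) were under 1 FPKM in all samples, as were the myeloid markers CD14 and CSF1R, while CD68, a lysosomal protein that many cells make, was at 19.8 to 31.6 FPKM.

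IFNγ raised APOL1, APOL3 and APOL6 from between 0.529 and 1.82 FPKM in the Control samples to between 14.2 and 35.0 FPKM. Of the 4 genes, 3 passed the test as higher, where 8.46% of all genes did (limma, Benjamini-Hochberg adjusted p under 0.05 over 4918 genes). The median change of the 4 genes was 3.45 on the log2(FPKM + 1) scale, against -0.02 over all genes. On this scale the change of a gene with a low starting level is understated, so FPKM folds are given as well.

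APOL1, the secreted member, was at 1.12, 1.17 and 1.21 log2(FPKM + 1) in the Control samples and at 4.73, 4.47 and 4.56 with IFNγ. The groups stood far apart, and the spread within each was small beside the gap. Mean expression rose from 1.25 ± 0.0682 to 23.1 ± 2.26 FPKM (SD, n = 3), an 18.6-fold difference. The change was 3.42 on the log2 scale (SE 0.08, limma adjusted p = 3.35e-06).

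APOL3, the membrane-permeabilizing member, had the lowest control level, at 0.81, 0.63 and 0.61 log2(FPKM + 1), and reached 4.31, 3.93 and 4.25 with IFNγ. All 3 control samples were under 1 FPKM, and no sample with IFNγ came near them. The mean rose 28.0-fold, from 0.607 ± 0.124 to 17.0 ± 2.48 FPKM (SD, n = 3), with a log2 change of 3.48 (SE 0.12, limma adjusted p = 1.36e-05).

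APOL6, the member with a BH3-like motif, was at 1.32, 1.38 and 1.49 log2(FPKM + 1) in Control and at 5.17, 4.86 and 5.02 with IFNγ. It had the largest log2 change of the family, 3.62 (SE 0.09, limma adjusted p = 3.87e-06), and its mean went 19.3-fold from 1.64 ± 0.164 to 31.5 ± 3.50 FPKM (SD, n = 3). The intervals of the 3 genes' changes overlapped (95% interval 3.22 to 3.62 for APOL1 and 3.18 to 3.77 for APOL3), so their order by change is within error. Ordered by size among all 4918 genes, APOL6 was at rank 8 of the rises, APOL3 at rank 12 and APOL1 at rank 14.

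APOL2 behaved differently between samples of a group. It was the best expressed member without treatment, at 2.85, 2.90 and 3.02 log2(FPKM + 1) in Control, and was at 5.37, 3.13 and 3.61 with IFNγ. Every sample with IFNγ lay above every control, but 2 of the 3 did so by less than 1 on the log2 scale, and replicate 1 was 5.21-fold above replicate 2 in FPKM. The change was 1.12 (SE 0.55, 95% interval -0.22 to 2.45) and did not pass the test (limma adjusted p = 0.218). Without IFNγ replicate 1 it was 0.45, and without IFNγ replicate 2 it was 1.57, and neither passed. That replicate 1 was also the deepest sample of the study (150% of the mean control), and it held the highest value of the 12 samples for each of the 4 APOL genes. The part of depth in this was not tested.

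**Figure D2:**
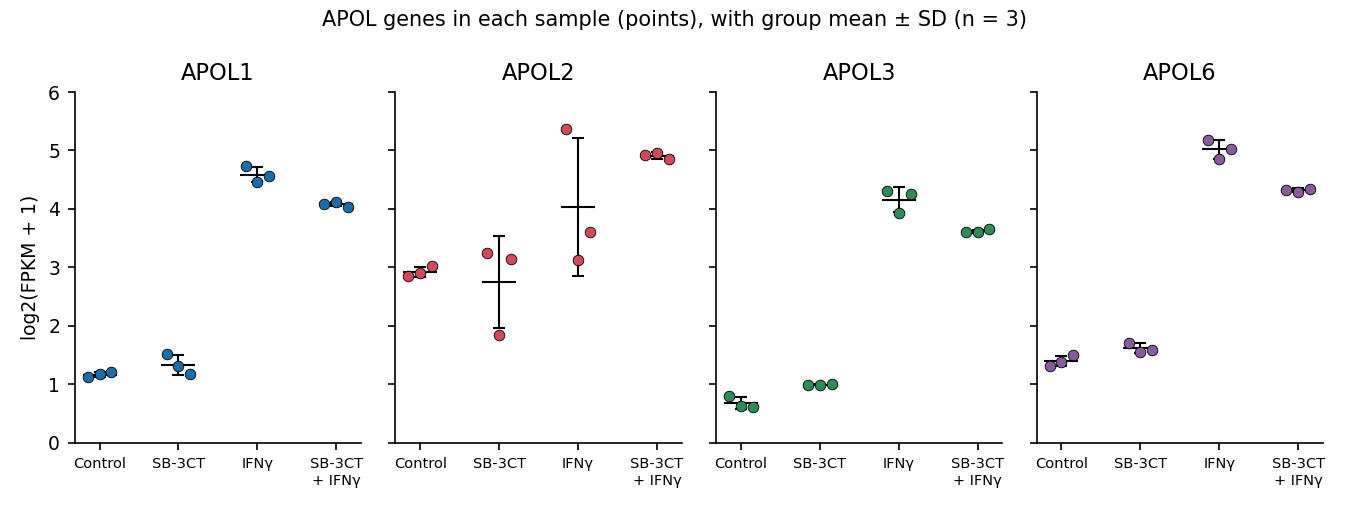
Expression of APOL1, APOL2, APOL3 and APOL6 in each of the 12 samples as log2(FPKM + 1), with points for samples and a bar and whiskers for the group mean and SD (n = 3). APOL1, APOL3 and APOL6 separate into samples with and without IFNγ, whereas APOL2 spans 3.13 to 5.37 within the IFNγ group and 1.84 to 3.25 within the SB-3CT group.

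With SB-3CT present in both arms, IFNγ raised all 4 members. All 4 of the 4 genes passed as higher, where 7.85% of all genes did (386 higher and 1608 lower, or 657 and 547 with median-ratio scaling), and the median change of the 4 was 2.67 against -0.11 over all genes. In the samples with SB-3CT alone APOL1 was at 1.52, 1.31 and 1.18 log2(FPKM + 1), and with both agents it was at 4.09, 4.11 and 4.04. APOL3 went from 0.98, 1.00 and 1.00 to 3.60, 3.61 and 3.65, and APOL6 from 1.71, 1.55 and 1.59 to 4.33, 4.29 and 4.35. In these 3 genes the samples with both agents lay close together and were far above those with SB-3CT alone. The changes were 2.75 for APOL1 (SE 0.10, limma adjusted p = 1.94e-05), 2.63 for APOL3 (SE 0.06, limma adjusted p = 2.16e-06) and 2.71 for APOL6 (SE 0.06, limma adjusted p = 2.42e-06). In FPKM, the folds were 10.4, 11.4 and 9.19.

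APOL2 was at 3.25, 1.84 and 3.15 log2(FPKM + 1) with SB-3CT alone and at 4.92, 4.96 and 4.85 with both agents. The groups did not overlap, and the sample that stood apart was SB-3CT replicate 2, which was 3.28-fold under replicate 1 in FPKM. The change of 2.16 passed the test (SE 0.37, limma adjusted p = 0.00598), and without SB-3CT replicate 2 it was 1.71 with an adjusted p of 0.000242 in the same limma test. The 4 genes took ranks 16 (APOL1), 17 (APOL6), 19 (APOL3) and 27 (APOL2) among the rises of all genes.

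SB-3CT without IFNγ moved the family little. APOL3 was the single member of the 4 that passed the test as higher, where 5.37% of all genes did. Its Control samples at 0.81, 0.63 and 0.61 log2(FPKM + 1) lay under all 3 SB-3CT samples at 0.98, 1.00 and 1.00, which is a step from 0.607 ± 0.124 to 0.989 ± 0.0141 FPKM (SD, n = 3). The change was 0.31 (SE 0.07, limma adjusted p = 0.0313), at levels under 1 FPKM in both groups. It no longer passed without Control replicate 2 (limma adjusted p = 0.116), Control replicate 3 (0.106), SB-3CT replicate 2 (0.0961) or SB-3CT replicate 3 (0.107), nor in 4 other settings.

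APOL6 was at 1.32 to 1.49 log2(FPKM + 1) in Control and at 1.55 to 1.71 with SB-3CT, and its change of 0.22 did not pass (SE 0.09, 95% interval 0.02 to 0.42, limma adjusted p = 0.134). It passed after quantile normalization (0.31, limma adjusted p = 0.0348) and with a trend on transcript length taken out (0.34, limma adjusted p = 0.0196). APOL1 changed by 0.17 (95% interval -0.06 to 0.40, limma adjusted p = 0.304), with SB-3CT replicate 3 inside the control range. APOL2 changed by -0.18 (95% interval -0.98 to 0.63, limma adjusted p = 0.783), and by 0.28 without SB-3CT replicate 2, so no direction can be given for it.

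Under IFNγ, SB-3CT lowered APOL1, APOL3 and APOL6, the comparison in which the study looked for pathways altered by SB-3CT. Of the 4 genes, 3 passed as lower, where 31.5% of all genes did, so a lower value was common in this comparison. Over all genes 1547 were lower and 315 higher, and with median-ratio scaling 811 were lower and 763 higher. The median change over the 3177 genes with a mean of at least 1 FPKM was -0.20, and that of the 4 members was -0.52. The comparison uses the same IFNγ samples as the comparison with Control above.

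APOL1 was at 4.73, 4.47 and 4.56 log2(FPKM + 1) with IFNγ and at 4.09, 4.11 and 4.04 with both agents. All 3 samples with both agents lay under all 3 with IFNγ alone, and the mean of 15.9 ± 0.442 FPKM (SD, n = 3) was 68.8% of that with IFNγ. The change was -0.51 (SE 0.08, limma adjusted p = 0.00305). With median-ratio scaling it was -0.28, and with a trend on transcript length taken out it was -0.30, and it passed in both (limma adjusted p = 0.00732 and 0.00283).

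APOL3 was at 4.31, 3.93 and 4.25 log2(FPKM + 1) with IFNγ and at 3.60, 3.61 and 3.65 with both agents, again with no overlap. Its mean with both agents, 11.3 ± 0.234 FPKM (SD, n = 3), was 66.4% of that with IFNγ, a change of -0.54 (SE 0.10, limma adjusted p = 0.00619). With median-ratio scaling the change was -0.32 (limma adjusted p = 0.0220), and with quantile normalization it was -0.35 (limma adjusted p = 0.0258).

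APOL6 was at 5.17, 4.86 and 5.02 log2(FPKM + 1) with IFNγ and at 4.33, 4.29 and 4.35 with both agents. It showed the lowest share of the IFNγ level in the family, 60.3%, at 19.0 ± 0.382 FPKM (SD, n = 3), with a change of -0.70 (SE 0.08, limma adjusted p = 0.00209). APOL6 also has by far the longest transcript of the 4, and taking out the trend on transcript length brought its change to -0.25 (limma adjusted p = 0.00544), the smallest of the 3 genes in that setting. With median-ratio scaling it was -0.47. The direction of the 3 genes was lower in each of these settings, and their order by change differed between them.

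APOL2 was the member without a lower value. It was at 5.37, 3.13 and 3.61 log2(FPKM + 1) with IFNγ and at 4.92, 4.96 and 4.85 with both agents, so the samples with both agents lay inside the range of those with IFNγ alone. The change of 0.87 did not pass (SE 0.51, 95% interval -0.31 to 2.05, limma adjusted p = 0.226). Without IFNγ replicate 1 it was 1.54 and passed as higher (limma adjusted p = 0.0128), and it also passed among genes with a mean of at least 1 FPKM (limma adjusted p = 0.0458). Without IFNγ replicate 2 it was 0.42 and did not pass (limma adjusted p = 0.577), so its size depended on which library was left out.

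**Figure D3:**
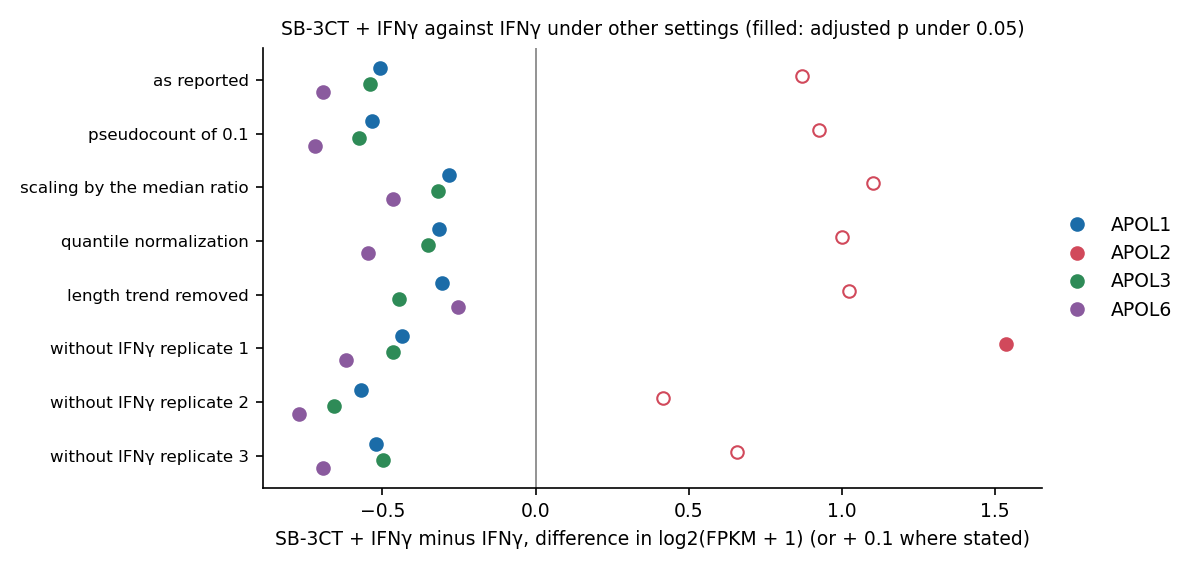
Difference between SB-3CT with IFNγ and IFNγ alone on the log2(FPKM + 1) scale (horizontal axis, with a pseudocount of 0.1 in the row that says so) for each APOL gene as reported, under other scalings, and with each IFNγ sample left out. APOL1, APOL3 and APOL6 stay below 0, between -0.77 and -0.25, and APOL2 stays above 0, between 0.42 and 1.54, with a filled point without IFNγ replicate 1.

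Whether the change with SB-3CT depended on IFNγ was tested as an interaction over all 12 samples, that is, as the change with SB-3CT under IFNγ minus the change with SB-3CT alone. Of the 4 genes, 3 passed as lower, where 17.6% of all genes did (866 lower and 233 higher, or 275 and 382 with median-ratio scaling), and the median over the genes with a mean of at least 1 FPKM was -0.19. The term was -0.68 for APOL1 (SE 0.13, limma adjusted p = 0.00728), -0.85 for APOL3 (SE 0.14, limma adjusted p = 0.00497) and -0.91 for APOL6 (SE 0.12, limma adjusted p = 0.00229). The IFNγ fold in FPKM with SB-3CT was 55.9% of that without it for APOL1, 40.8% for APOL3 and 47.7% for APOL6. For APOL3 both folds divide by a mean under 1 FPKM (0.607 and 0.989). Over the alternatives the term ran from -0.80 to -0.46 for APOL1, from -1.21 to -0.63 for APOL3 and from -1.04 to -0.60 for APOL6. For APOL2 the term was 1.05 and did not pass (SE 0.69, limma adjusted p = 0.309), but without IFNγ replicate 1 it was 1.71 and passed (limma adjusted p = 0.0339).

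**Figure D4:**
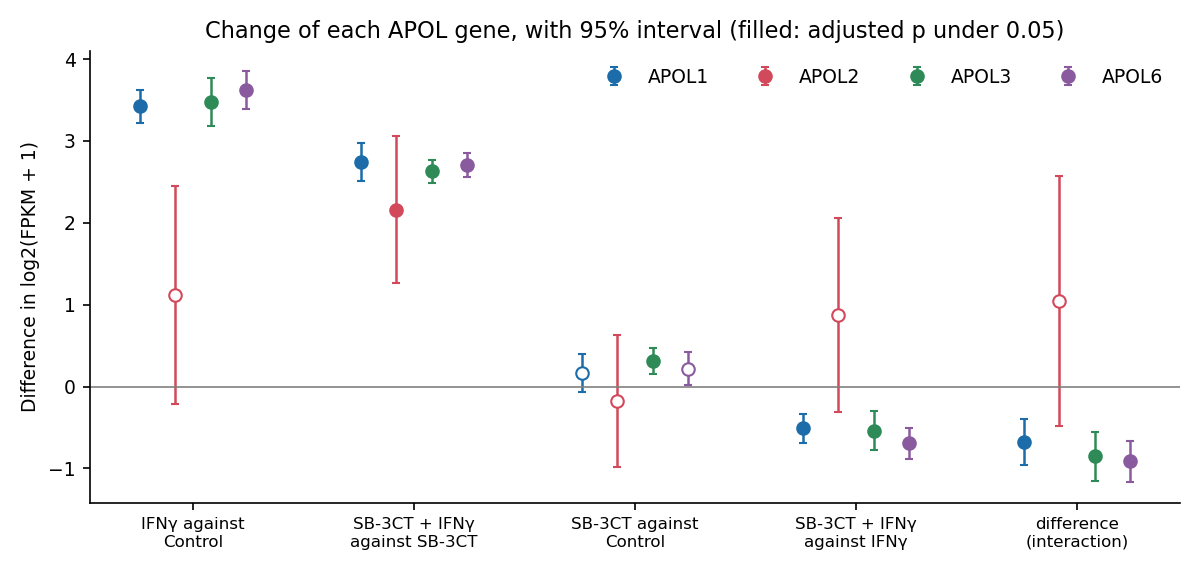
Change of each APOL gene in the 5 comparisons as a difference in log2(FPKM + 1), with 95% intervals from limma, filled where the adjusted p was under 0.05. APOL1, APOL3 and APOL6 move together at 3.42 to 3.62 with IFNγ and at 2.63 to 2.75 with IFNγ in the presence of SB-3CT, and APOL2 has the widest interval in every comparison.

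The make-up of the family's RNA changed with IFNγ. FPKM is scaled per length, so levels were set side by side between genes. The transcript lengths used are not given, and annotated coding transcripts ran from 577 to 2685 bases for APOL2 and from 295 to 3626 for APOL3. Shares and order between genes are therefore approximate. The 4 members summed to 10.1 ± 0.584 FPKM in Control, 10.9 ± 3.48 with SB-3CT, 91.5 ± 25.4 with IFNγ and 75.3 ± 1.04 with both agents (SD, n = 3). APOL2 held 65.4% ± 0.732 of the sum in Control and 54.8% ± 15.4 with SB-3CT, but 19.4% ± 12.5 with IFNγ and 38.6% ± 1.03 with both agents (SD, n = 3). Its share was 33.7%, 10.9% and 13.5% in the 3 IFNγ samples, and 12.2% on average without IFNγ replicate 1. APOL6 went from 16.2% ± 0.697 in Control to 35.5% ± 5.47 with IFNγ, APOL1 from 12.4% ± 0.338 to 26.1% ± 4.30 and APOL3 from 6.06% ± 1.5 to 19.1% ± 3.02 (SD, n = 3). In 10 of the 12 samples the order of levels from high to low was APOL2, APOL6, APOL1 and APOL3. In IFNγ replicates 2 and 3, APOL2 was the lowest of the 4 and the order of the other members was kept. Without APOL2 the sum was 3.49 ± 0.142 FPKM in Control, 4.59 ± 0.457 with SB-3CT, 71.7 ± 8.06 with IFNγ and 46.2 ± 0.135 with both agents.

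**Figure D5:**
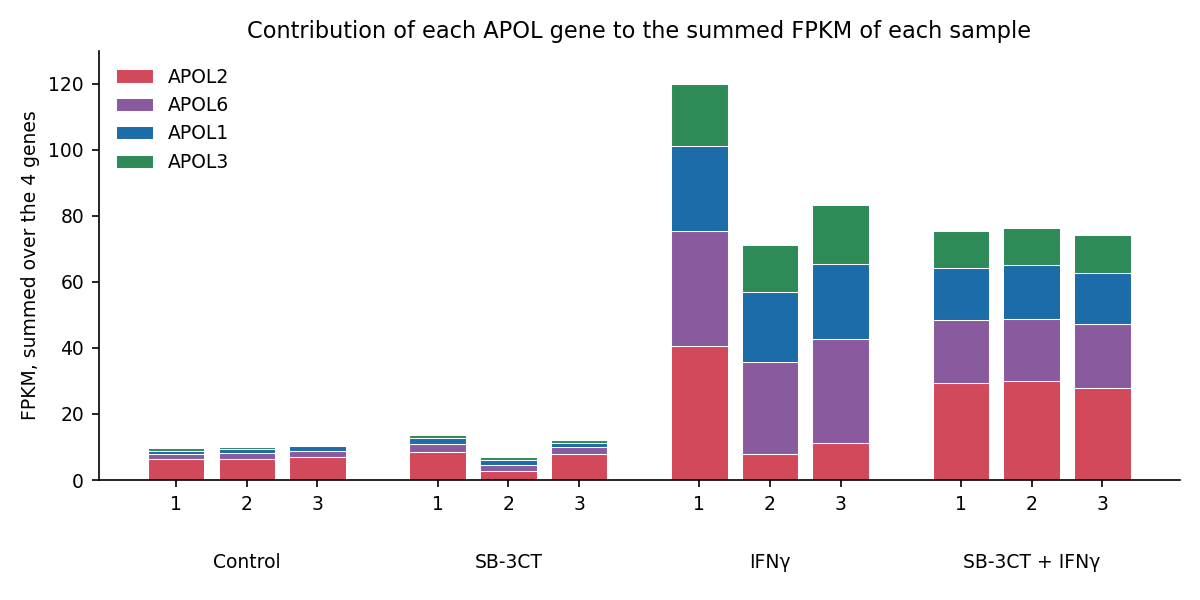
FPKM of the 4 APOL genes stacked for each sample, with replicate numbers under the bars and bars starting at 0. APOL2 is the largest part of each bar without IFNγ (37.1% in SB-3CT replicate 2 and 62.4% to 66.0% in the other 5 samples), and among the IFNγ samples it is large in replicate 1 (40.5 FPKM) and small in replicates 2 (7.76 FPKM) and 3 (11.2 FPKM).

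The spread of APOL2 was set against genes of like level. In the IFNγ group its SD was 1.18 on the log2 scale, and 0 of the 573 genes within 0.5 of its mean had a larger SD, with a median of 0.11. In the SB-3CT group its SD was 0.78, with 0 of 695 genes above it. In Control and with both agents the SD was 0.08 and 0.06, and 43.2% and 62.6% of genes of like level had a larger SD. The low values came in SB-3CT replicate 2 (depth 92.5% of the mean control), IFNγ replicate 2 (118%) and IFNγ replicate 3 (87.0%). The part of depth in these values was not tested. Among the 2594 genes with a mean of at least 2 on the log2 scale in the IFNγ group, 14 had an SD over 0.5, and APOL2 ranked first, followed by CDK6 and ARPP19.

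Across the 12 samples, APOL1, APOL3 and APOL6 followed each other at Pearson r = 0.997 to 0.999. These coefficients describe points that share groups and libraries. After the group means were taken out, r was 0.78 for APOL1 and APOL6, 0.48 for APOL3 and APOL6 and 0.31 for APOL1 and APOL3. APOL2 correlated with the others at 0.743 to 0.755 across the 12 samples, and after the group means were taken out at 0.59 with APOL1, 0.53 with APOL3 and 0.80 with APOL6, the highest of the 6 pairs.

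The genes most like each member were taken from 3297 genes by Pearson r over the 12 samples. APOL1 was closest to APOL6 (0.999), CIITA (0.997) and C1R, a complement protease (0.997). APOL6 was closest to APOL1 (0.999), CIITA (0.998) and CEACAM1, an adhesion receptor (0.998). APOL3 was closest to CIITA (0.998), ACSL5, a fatty acyl-CoA synthetase (0.998), and APOL6 (0.998). APOL2 had no such close partner, and the highest were BET1 (0.863), CCDC109B (0.846) and CD5L (0.844).

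The other IFNγ-inducible genes, from a list of 44 of which 35 were measured, were set beside these changes. The list was chosen with earlier results of these data known, so its counts and medians are a description and not independent support. With IFNγ 34 of the 35 passed as higher (8.46% of all genes did), with a median change of 1.98, and the exception was CASP8 (0.22, limma adjusted p = 0.246). In the presence of SB-3CT 33 of 35 passed as higher (7.85% of all genes), with a median of 1.67. With SB-3CT alone, AIM2, a sensor of cytosolic DNA, was the single gene of the list that passed, and it was lower (-0.70, limma adjusted p = 0.00608). Under IFNγ, SB-3CT lowered 25 of 35, where 31.5% of all genes passed as lower, with a median of -0.44, among them CIITA (-0.49, limma adjusted p = 0.00254) and CD274 (-0.53, limma adjusted p = 0.00542). CXCL10 (0.44, limma adjusted p = 0.00874) and CCL2 (0.55, limma adjusted p = 0.00706), both chemokines, passed as higher. In the interaction 21 passed as lower, where 17.6% of all genes did, and 4 as higher, with a median of -0.41. Over all genes, those lower with SB-3CT under IFNγ numbered 1547, or 811 with median-ratio scaling. The changes of the listed genes under other scalings are not given here.

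The other genes named as apolipoproteins, most of which carry lipids in plasma, are not related in sequence to the APOL genes. Of a list of 16, 10 were measured, and 4 of these (APOA1, APOA2, APOA5 and APOF) were under 1 FPKM in every sample. None of the 10 passed as higher with IFNγ against Control. With IFNγ, APOO, a mitochondrial protein despite its name, was the only one of the 10 that passed. It was lower (-0.26, limma adjusted p = 0.0161), where 11.0% of all genes passed as lower. APOC1 went from 13.5 to 18.8 FPKM with IFNγ and did not pass (0.45, limma adjusted p = 0.0778). It passed as higher with IFNγ in the presence of SB-3CT (0.76, limma adjusted p = 0.00134), where 7.85% of all genes did. Its mean went from 13.3 ± 1.53 to 23.2 ± 0.526 FPKM (SD, n = 3). Under IFNγ, APOE (0.47, limma adjusted p = 0.00880) and APOO (0.36, limma adjusted p = 0.00380) passed as higher with SB-3CT, the opposite direction to APOL1, APOL3 and APOL6. Of all genes, 6.41% passed as higher (315, or 763 with median-ratio scaling). The changes of APOE and APOO under other scalings are not given here. APOA5, which was at most 0.137 FPKM in any sample, passed as lower (-0.10, limma adjusted p = 0.0474), where 31.5% of all genes did. APOD did not pass in any of the 5 comparisons, and APOB was not analysed here. APOLD1, a related gene on chromosome 12 named for its APOL domain, stayed between 0.210 and 0.467 FPKM, and passed only as lower with both agents against IFNγ (-0.15, limma adjusted p = 0.0480).

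Of the 32 protein-coding genes in the family's stretch or within 1 Mb of it, 6 were measured, and the 2 that are not APOL genes were EIF3D and C1QTNF6. EIF3D, a subunit of a translation initiation factor, lay 243326 bases from the stretch, at 84.6 FPKM in Control and 80.6 with IFNγ, and did not pass in that comparison (-0.07, limma adjusted p = 0.516). It passed as lower with both agents against IFNγ (-0.26, limma adjusted p = 0.0118) and against SB-3CT (-0.40, limma adjusted p = 0.00177), and in the interaction (-0.33, limma adjusted p = 0.0171). Of all genes, 31.5%, 32.7% and 17.6% passed as lower in these comparisons, in that order. The medians over genes with a mean of at least 1 FPKM were -0.20, -0.21 and -0.19. C1QTNF6, a secreted protein of the C1q and TNF family, lay 912630 bases away and rose with IFNγ from 2.36 to 4.33 FPKM (0.66, limma adjusted p = 0.00146). It also rose with IFNγ in the presence of SB-3CT (0.45, limma adjusted p = 0.0128) and was lower with both agents than with IFNγ alone (-0.42, limma adjusted p = 0.00577), and its interaction term did not pass (-0.21, limma adjusted p = 0.216). Of all genes, 8.46% passed as higher with IFNγ and 7.85% did so in the presence of SB-3CT. With both agents against IFNγ, 31.5% passed as lower.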

How the data were processed

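RNA-seq reads of 12 A375 samples were aligned by the authors to hg19 with hisat2 2.0.5, and FPKM was calculated with Stringtie 1.3.3 (versions from the submitters' processing notes). Annotation and scaling between samples are not given in the sources used here. The deposited values fit log2(FPKM + 1) and were used as such, and FPKM was taken back from them. The design had assumed FPKM, and the step to logs was not needed. The values cover 4918 genes, from A1BG to FAM46B in alphabetical order.

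Tests used limma 3.58.1 under R 4.3.3 (linear models with a variance trend and no pairing, 3 + 3 samples, or all 12 for the interaction), and p-values were adjusted over all genes (Benjamini-Hochberg, called under 0.05). The fit was tested on simulated data. The members, the gene lists and the rule for named genes (members, CXCL10, CD274 and CIITA, apolipoproteins past the test, genes within 1 Mb, and the 3 genes most like each member) were chosen with earlier results of these data known. CASP8, AIM2, CCL2, CDK6 and ARPP19 were named after their values were seen. Relative depth came from the steps that whole reads leave in low FPKM values. No counting error could be given without absolute depth. Positions and transcripts came from GENCODE release 44 mapped to hg19. The alternatives were quantile normalization, median-ratio scaling, a filter at a mean FPKM of 1, a pseudocount of 0.1, a replicate block, leaving out each sample, limma without the trend or with robust variances, a per-gene equal-variance test and all 4 groups in one fit. A further alternative, in which a loess trend on transcript length was taken out of every sample, was chosen after seeing the data.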

Additional observations from a re-analysis of the deposited data

Results flagged for a closer look

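The change with SB-3CT differed between cells with and without IFNγ for 3 of the 4 APOL genes by the interaction test over 12 samples (limma, Benjamini-Hochberg adjusted over all genes), where 17.6% of all genes passed as lower. The SB-3CT change under IFNγ minus that without it was -0.68 for APOL1, -0.85 for APOL3 and -0.91 for APOL6 on the log2(FPKM + 1) scale. For APOL3 the change was 0.31 without IFNγ and -0.54 with it, for APOL6 it was 0.22 and -0.70, and for APOL1 it was 0.17 and -0.51. Without IFNγ, the changes of APOL6 and APOL1 did not pass (limma adjusted p = 0.134 and 0.304). That of APOL3 passed at levels under 1 FPKM, and lost its call in 8 of 15 alternatives. The interaction terms passed in every alternative, but were as small as -0.46 for APOL1, -0.63 for APOL3 and -0.60 for APOL6. The median of the same term over genes with a mean of at least 1 FPKM was -0.19.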

How the results depend on the processing

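Of 20 changes of single genes (4 genes in 5 comparisons), 16 kept their direction where called and their side of the threshold under every alternative, 4 changed side and 0 of the called changes reversed. The rises of APOL1, APOL3 and APOL6 with IFNγ, and their lower values with SB-3CT under IFNγ and in the interaction, passed in every alternative. Against Control, SB-3CT gave 1 APOL gene higher, but 0 with a pseudocount of 0.1, with a filter at a mean FPKM of 1 (where APOL3 drops out), with the replicate block, with the per-gene equal-variance test or with all 4 groups in one fit, and 2 after quantile normalization or with the length trend taken out. With a sample left out it ranged from 0 to 1. The adjusted p of APOL3 there ranged from 0.0187 to 0.116. Under IFNγ, SB-3CT gave 0 APOL genes higher, but 1 with the filter at a mean FPKM of 1, and 0 to 1 with a sample left out. In the interaction, 0 to 1 APOL genes were higher with a sample left out. The gene was APOL2 in each case, and the sample left out was IFNγ replicate 1. In limma on all samples its unadjusted p was 0.127 and 0.159.

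Deviations from the group means correlated at -0.39 to 0.17 between samples of 1 number. Samples of different numbers were not compared, so these values cannot tell whether the numbers tie samples across groups. The replicate block changed no other call of an APOL gene. Taking out the length trend moved the calls over all genes for IFNγ against Control from 416 higher and 542 lower to 694 and 558, for SB-3CT with IFNγ against IFNγ from 315 and 1547 to 1350 and 791, against SB-3CT from 386 and 1608 to 1608 and 664, and for the interaction from 233 and 866 to 775 and 377. Absolute depth is unknown and each group has 3 samples, which limits the precision for APOL2 in particular.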
